A study of Mus musculus with 2 samples.

Results

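The 9 genes described here code for surface receptors through which blood stem and progenitor cells find, hold and leave the bone marrow niche, and they were chosen by name, 9 of the 32285 genes in both matrices. Bone marrow (BM) Lin-Sca-1+c-Kit+ (LSK) cells, a lineage-negative fraction of stem cells and early progenitors, were measured by droplet single cell RNA-seq with a 3′ kit. Both groups were mice 8 to 10 weeks old with the SCLtTA/BCR-ABL transgenes, in which tetracycline withdrawal switches on BCR-ABL under the SCL promoter, a driver active in stem and progenitor cells, and both therefore had a chronic myeloid leukemia (CML) model. The library labelled miR-142 WT CML came from BCR-ABL+ mice with intact miR-142, and the library labelled miR-142 KO CML came from Mir142 KO BCR-ABL+ mice, whose miR-142 was deleted in the germline. There was 1 library per group, the sources used here did not give the number of mice behind each, and no group without BCR-ABL was measured in this assay. No statistical test was therefore possible, every value describes these 2 libraries, and all intervals are 95% intervals for counting error that leave out the spread between mice. Intervals of levels and ratios rest on summed UMIs and also leave out the spread between cells.

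Homing rests on a division of labour among these receptors. Rolling on vessel walls is mediated by selectin ligands such as PSGL-1 (Selplg) and CD44, arrest by the integrins VLA-4 (Itga4 with Itgb1) and LFA-1 (Itgal with Itgb2), and retention by CXCR4, the receptor of the stromal chemokine CXCL12. CD34 is a sialomucin of stem and progenitor cells, and CD48 is a SLAM family receptor whose absence from the surface helps to mark the most primitive LSK cells.

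The libraries differ by the loss of miR-142, so the seed sequences of its arms are shown first. A microRNA pairs with the 3′ untranslated region of a target mainly through its seed, bases 2 to 8. Both mature sequences are from RefSeq, lie on the plus strand of chromosome 11 (GRCm38; the 5p arm at chr11:87756867-87756887 and the 3p arm at chr11:87756903-87756925) and are printed 5′ to 3′ with the seed in capitals.
mmu-miR-142a-3p: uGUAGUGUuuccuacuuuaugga
mmu-miR-142a-5p: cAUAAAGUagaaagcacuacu

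The 7-base match to the 3p seed is ACACTAC, and that to the 5p seed is ACTTTAT; the transcript strand was searched. In the longest annotated 3′ untranslated region of each gene (GENCODE M21), the 3p match was present in 1 of the 9 receptors, Itga4, and in 6.06% of 20830 genes with such a region. The 5p match was present in 3 of the 9, Itga4, Cd44 and Cd34, and in 14.4% of the 20830. Itga4 has by far the longest region of the 9, with 6508 bases, against 381 for Cd48, 644 for Cxcr4 and 2992 for Cd44. Itga4 holds 2 matches to the 3p seed and 3 to the 5p seed, Cd44 holds 1 and Cd34 holds 2 to the 5p seed. All 8 are shown in windows of 29 bases on the transcript strand, the match in capitals, because Itga4 is the only receptor of the 9 with both kinds. They are descriptions of letters and not sites shown to act.
Itga4, 3p match, chr2:79329207-79329235, plus strand: gatctactgctACACTACtgtcttccaca
Itga4, 3p match, chr2:79332181-79332209, plus strand: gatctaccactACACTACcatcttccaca
Itga4, 5p match, chr2:79331108-79331136, plus strand: atctcttgcagACTTTATtataccatctt
Itga4, 5p match, chr2:79331474-79331502, plus strand: tggagacatagACTTTATtaattaatact
Itga4, 5p match followed by A, chr2:79332984-79333012, plus strand: gagtttctacaACTTTATacccattgctc
Cd44, 5p match, chr2:102813430-102813458, minus strand: ttttttaggttACTTTATcagaagcataa
Cd34, 5p match, chr1:194959903-194959931, plus strand: cagataatgctACTTTATttctatactgt
Cd34, 5p match, chr1:194960494-194960522, plus strand: cttcttcccctACTTTATggaaaccaagg
A 6-base match to the 5p seed, CTTTAT, added Itgb1 (4 of 9 receptors, 37.2% of genes). No match of any of the 3 lengths searched was found for Cxcr4, Selplg, Cd48, Itgal or Itgb2.

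Cells were barcodes with 8000 or more unique molecular identifiers (UMIs, which count RNA molecules) and under 10% mitochondrial UMIs, 5363 in miR-142 WT CML and 5458 in miR-142 KO CML. Summed UMIs were 138183896 and 158438757, the median per cell was 19443 and 24182, and 4 cell barcodes were shared. Mir142hg, the host transcript of miR-142, had 1260 UMIs in WT and 20 in KO. Of the sort markers, Kit stood at 86.4 and 68.3 CPM (summed counts of a gene scaled to a fixed total of UMIs), and Ly6a (Sca-1) at 96.8 and 153 CPM. Single markers of T cells (Cd3e, 0 and 2 UMIs), endothelium (Cdh5, 11 and 11) and stroma (Col1a1, 4 and 8) were near 0. Not all markers on the same lists were: Emcn, on the endothelial list, had 1445 and 121 UMIs. Summed T and natural killer cell markers had a median of 115 CPM in WT and 216 CPM in KO HSC-gated cells, defined below. The macrophage marker Adgre1 had 336 and 373 UMIs. Mast, basophil, innate lymphoid and antibody-secreting markers defined groups of cells of their own. Cxcl12, the ligand of CXCR4, had 1 and 0 UMIs, and Vcam1, a ligand of VLA-4, 33 and 48. The libraries differed in makeup. The list called granule genes here holds Elane, Mpo, Prtn3, Ctsg and Ms4a3, and also the transcription factors Cebpe and Gfi1. Its summed level had a median over cells of 1270 CPM in WT against 6556 CPM in KO.

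Cells were therefore also sorted into 13 groups by summed levels of marker genes, none of which is among the 9 receptors, and 10 groups held 50 or more cells in both libraries. The HSC-gated cells, defined by genes such as Hlf, Mecom and Procr and by the absence of a cell cycle signal, numbered 836 in WT and 283 in KO. Granule-high, monocyte-low cells (Elane, Mpo, Prtn3) numbered 371 and 1881, and granule-high, monocyte-high cells (with Irf8 and Ly86) 439 and 801. The other groups were lymphoid-primed (Flt3, Dntt; 852 and 552), megakaryocyte-primed (Pf4, Gp9; 295 and 188), basophil-gated (Mcpt8, Prss34; 79 and 137), mast-gated (Cma1, Tpsb2; 145 and 227), and cells outside these gates that were not cycling (474 and 453), in S phase (768 and 327) or in G2/M phase (997 and 397). A gate is a range of marker levels and not a cell type: 722 WT and 454 KO cells lay within 1.25-fold of the HSC threshold, for example. The 63 WT and 22 KO erythroid-primed, 8 and 190 innate lymphoid-gated and 36 and 0 antibody-secreting-gated cells were not compared.

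Over all cells, none of the 9 receptors was 1.5-fold or more apart between the libraries, the size at which a gene was counted as different here. Of 7483 genes with a mean of 10 CPM or more, 2.78% were that much higher in KO and 4.86% that much lower. Cxcr4 was the only receptor with a higher level in KO, 30.4 CPM in WT against 31.6 CPM in KO (log2 ratio 0.06, -0.0032 to 0.12). The other 8 had lower levels in KO, with log2 ratios from -0.05 (Itgb1) to -0.36 (Cd34), and the intervals of all 8 lay below 0, as did those of 53.2% of the genes tested. The median of the 9 was -0.17, against -0.08 for all genes tested. With every cell thinned to 8000 UMIs, which gives each cell the same weight, the log2 ratio of Cxcr4 was 0.41 and the signs of Itgb1 (0.0050) and Itgal (0.075) turned, and with a cutoff of 16000 UMIs that of Cxcr4 did (-0.06).

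The makeup of the libraries moved with these values. Granule-high, monocyte-low cells gave 13.5% of the UMIs of the compared groups in WT and 46.5% in KO. When both libraries were weighted to 1 composition of cell groups, the log2 ratio of Cd34 moved from -0.36 to -0.03, that of Cd48 from -0.28 to -0.14 and that of Itga4 from -0.15 to 0.09. That of Itgb2 was -0.34 before and -0.36 after the weighting, and that of Itgal -0.22 and -0.19.

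**Figure D1:**
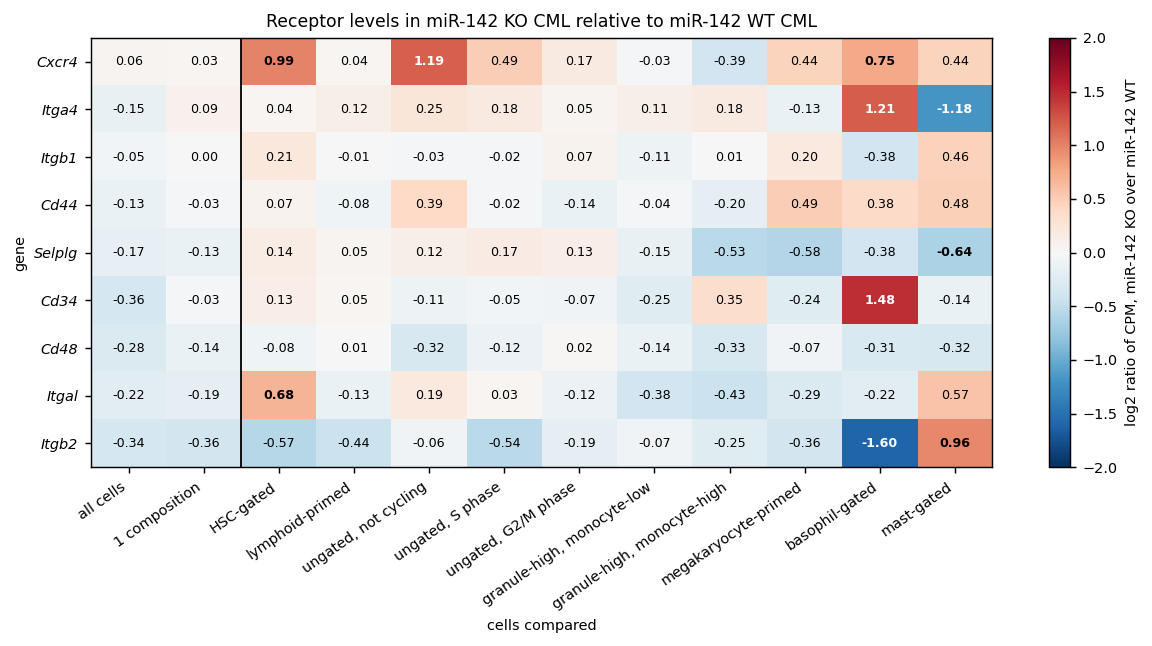
Log2 ratio of the summed level (KO over WT) of the 9 receptors (rows) over all cells, over cells weighted to 1 composition, and inside each of 10 marker-gated cell groups (columns); red is higher in KO, blue lower, and bold marks ratios inside cell groups of 1.5-fold or more. All-cell ratios lie between -0.36 and 0.06, while single groups reach 1.48 for Cd34 and -1.601 for Itgb2 in basophil-gated cells.

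Inside the cell groups, 10 of the 90 pairs of receptor and group were 1.5-fold or more apart, 7 higher in KO and 3 lower. Of these, 4 were in basophil-gated cells (of 9 receptors; 20.3% of all genes tested there were that far apart) and 3 in mast-gated cells (17.1% of genes). The others were Cxcr4 and Itgal in HSC-gated cells (2 of 9 receptors, 8.03% of genes) and Cxcr4 in ungated non-cycling cells (1 of 9, 5.95%). No receptor was that far apart in lymphoid-primed (5.96% of genes), ungated S phase (5.15%), ungated G2/M phase (4.5%), granule-high, monocyte-low (4.14%), granule-high, monocyte-high (5.97%) or megakaryocyte-primed cells (8.41%). The receptors are taken in turn below, in the order of their roles.

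Cxcr4 (ENSMUSG00000045382, chromosome 1, 128588199 to 128592293, minus strand) codes for the CXCL12 receptor that holds stem and progenitor cells in the marrow. In HSC-gated and ungated non-cycling cells it was about as low as anywhere in miR-142 WT CML and higher in miR-142 KO CML. HSC-gated cells had 128 UMIs in WT, or 13.02 CPM (10.9 to 15.5), and 80 UMIs in KO, or 25.8 CPM (20.5 to 32.1). The log2 ratio was 0.99 (0.57 to 1.40). Ungated non-cycling cells had 10.6 CPM (8.24 to 13.5) in WT against 24.2 CPM (20.3 to 28.5) in KO, a log2 ratio of 1.19 (0.76 to 1.63). In both groups the intervals of the 2 libraries did not overlap.

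Basophil-gated cells were the other group past 1.5-fold, at 39.9 CPM (31.99 to 49.3) in WT against 67.3 CPM (58.5 to 77.1) in KO, a log2 ratio of 0.75 (0.39 to 1.13), and 54.4% of the WT and 47.4% of the KO cells there were in the S or G2/M gate. The log2 ratio was 0.44 in both megakaryocyte-primed (-0.07 to 0.95) and mast-gated cells (-0.10 to 1.003). It was smaller in ungated cycling than in ungated non-cycling cells and below 0 in granule-high, monocyte-high cells. It stood at 0.49 (0.25 to 0.73) in ungated S phase cells, 0.17 (-0.01 to 0.35) in G2/M phase cells, 0.04 in lymphoid-primed cells and -0.03 in granule-high, monocyte-low cells. In granule-high, monocyte-high cells it was -0.39 (-0.50 to -0.28), from 46.5 CPM in WT to 35.5 CPM in KO. Expressed as order, WT Cxcr4 was highest in granule-high, monocyte-high cells and lowest in ungated non-cycling and HSC-gated cells, a 4.38-fold range in which each group overlapped the next. In KO the range was 3.58-fold, from 67.3 CPM in basophil-gated cells, which stood apart from all others, to 18.8 CPM in megakaryocyte-primed cells.

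Among all cells outside the S and G2/M gates, pooled over cell groups, Cxcr4 had a log2 ratio of 0.96, against 0.06 over all cells. This pool was not matched in makeup. Of the 371 WT and 1881 KO granule-high, monocyte-low cells, 93.0% and 78.8% were in the S or G2/M gate, so more of them entered the KO pool. The pool also held innate lymphoid-gated cells, 8 in WT and 190 in KO before the cycling cells were left out. The part of makeup in the pooled ratio was not tested. The KO HSC-gated cells were not equal to the WT ones in their markers: their median summed HSC marker level was 335 CPM against 447 CPM, and their granule gene level 1397 CPM against 968 CPM. In ungated non-cycling cells the HSC marker level was 79 CPM in KO against 107 CPM in WT, under the HSC gate of 200 CPM. Their granule gene level was 2110 CPM in KO against 1197 CPM in WT. Non-cycling HSC-gated, lymphoid-primed and ungated cells were therefore split by the level of HSC markers in each cell, a split chosen after the data were seen. Cxcr4 was higher in KO in each of the 4 ranges. At 0 to 100 CPM of HSC markers it stood at 17.6 CPM in WT against 26.5 CPM in KO (log2 ratio 0.59, 0.23 to 0.96). At 100 to 200 CPM it stood at 12.5 and 25.9 CPM (1.05), and at 200 to 400 CPM at 10.99 and 24.9 CPM (1.18, 0.64 to 1.72). At 400 CPM or more, with 505 WT and only 91 KO cells, it stood at 13.9 and 25.2 CPM (0.86, 0.14 to 1.54). The KO level thus hardly varied with the HSC markers, and the WT level was highest where they were lowest. Within these ranges Hlf itself, a transcription factor of stem cells, was lower in KO in all 4, with log2 ratios from -0.83 to -0.45, so the ranges did not fully match the cells of the 2 libraries; the part of this in the Cxcr4 difference was not tested.

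KO cells were deeper over all cells, with a median of 24182 UMIs against 19443 in WT. They were shallower in the HSC-gated (9866 against 11048.5) and ungated non-cycling groups (11561 against 12338.5). The share of cells with a Cxcr4 UMI was therefore counted with every cell thinned to 8000 random UMIs. It was 17.02% (16.03 to 18.06) in WT and 22.08% (20.98 to 23.20) in KO, a difference of 5.05 percentage points with a counting error of 1.504. Without thinning it was 40.2% and 51.3%. In HSC-gated cells the thinned share was 9.33% (7.44 to 11.5) and 18.0% (13.7 to 23.0), and in ungated non-cycling cells 8.02% (5.74 to 10.8) and 17.7% (14.3 to 21.5). The lowest share of any group was 5.52%, in WT mast-gated cells. RNA outside cells, read from barcodes with 10 to 100 UMIs, held Cxcr4 at 20.4 CPM in WT against 24.8 CPM in KO. Genes foreign to the HSC-gated cells, those of antibody-secreting cells in WT and of mast cells in both libraries, stood there at 1.31 to 4.66% of their level in this free RNA. Mast genes in granule-high cells stood at 1.40% of it in WT and 0.66% in KO. Elane, Mpo, Prtn3, Ctsg and Ms4a3, summed in mast-gated cells, stood at 47.5% of it in WT and 38.8% in KO. The part of free RNA in the receptor values was not tested.

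**Figure D2:**
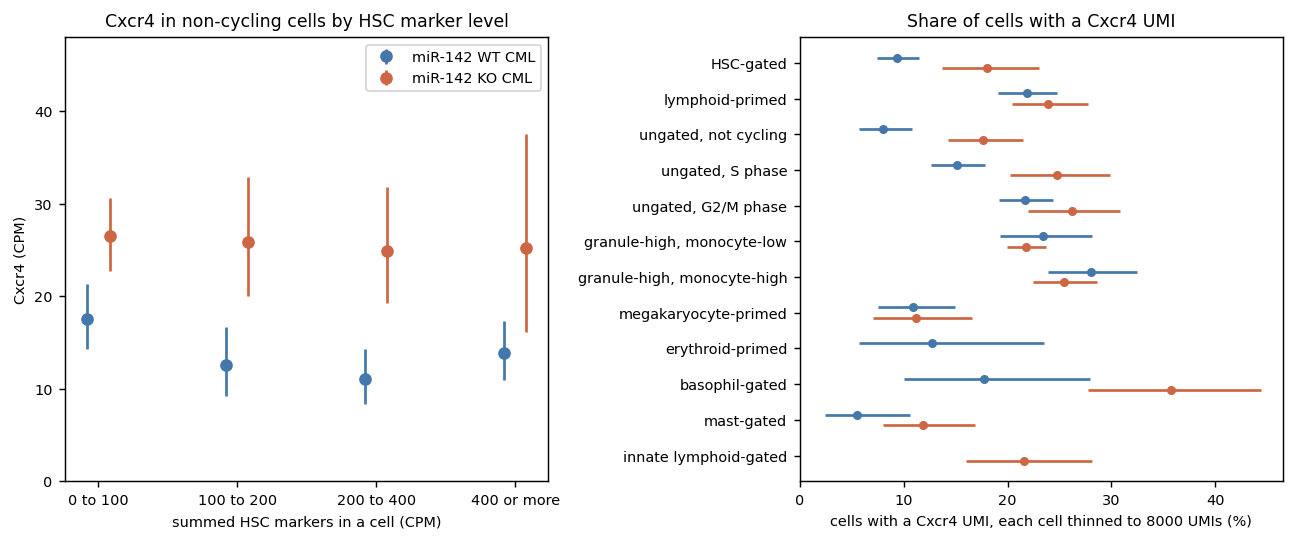
Left, summed Cxcr4 level (CPM) in non-cycling cells by the summed level of HSC markers in each cell; right, share of cells with a Cxcr4 UMI by cell group after thinning to 8000 UMIs. Points are the libraries (blue WT, orange KO) and bars 95% counting intervals; KO lies above WT in all 4 ranges of HSC markers, from 24.9 to 26.5 CPM against 10.99 to 17.6 CPM.

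VLA-4, the integrin that binds VCAM-1 and fibronectin, is made of Itga4 (ENSMUSG00000027009, chromosome 2, 79255426 to 79333123, plus strand) and Itgb1 (ENSMUSG00000025809, chromosome 8, 128685654 to 128733200, plus strand), the beta chain shared by many integrins. In the HSC-gated cells Itga4 stood at 110.1 CPM in WT against 113 CPM in KO (log2 ratio 0.04, -0.14 to 0.21), and Itgb1 at 89.5 and 104 CPM (0.21, 0.02 to 0.40). Itga4 was higher in KO in 8 of 10 groups, as were 20.4% of all genes tested in 8 or more, and its log2 ratio had a median of 0.12 over the 10 groups. The intervals lay above 0 in 6 groups, with log2 ratios of 0.11 and 0.18 in the granule-high groups, for example.

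The large Itga4 differences were in the rare granulocyte-like groups and had opposite signs. Mast-gated cells had 142 CPM (128 to 157) in WT against 62.8 CPM (55.6 to 70.7) in KO, a log2 ratio of -1.18 (-1.40 to -0.95). Basophil-gated cells had 40.9 CPM (32.8 to 50.3) in WT against 94.3 CPM (83.8 to 106) in KO, a log2 ratio of 1.21 (0.86 to 1.57). These gates did not hold like cells in the 2 libraries: in basophil-gated cells the median basophil marker level was 20999 CPM in WT against 8948 CPM in KO, and the granule gene level 1662 and 5684 CPM; in mast-gated cells, 40.7% of WT and 17.6% of KO cells were in the S or G2/M gate. The part of these differences in the receptor values was not tested.

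Itgb1 was the most even of the 9 across cell groups. Its level ranged 1.64-fold in WT, from 70.1 CPM in granule-high, monocyte-high to 115 CPM in basophil-gated cells, and 1.79-fold in KO, from 70.6 CPM in the same myeloid group to 127 CPM in mast-gated cells. No group was 1.5-fold or more apart between libraries. Megakaryocyte-primed cells were high in both, at 102 CPM in WT against 117 CPM in KO. UMIs of Itga4 and Itgb1 were found together, after thinning, in 22.2% (21.1 to 23.4) of WT and 21.2% (20.1 to 22.3) of KO cells, and in 27.0% and 30.0% of HSC-gated cells.

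Itgb7, the other beta chain that pairs with Itga4, was higher in KO in 8 of 10 groups and 23.7 CPM against 32.2 CPM over all cells (log2 ratio 0.45, 0.38 to 0.51). It stood at 21.4 CPM in WT against 53.2 CPM in KO HSC-gated cells, 29.7 and 57.4 CPM in lymphoid-primed cells, and 20.7 and 51.6 CPM in ungated non-cycling cells. The exceptions were basophil-gated cells, with 217 and 127 CPM, and granule-high, monocyte-high cells, with 12.1 and 11.4 CPM.

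LFA-1, the integrin that binds ICAMs, is made of Itgal (ENSMUSG00000030830, chromosome 7, 127296260 to 127335138, plus strand) and Itgb2 (ENSMUSG00000000290, chromosome 10, 77530252 to 77565708, plus strand), the beta chain of leukocyte integrins. Itgal in HSC-gated cells stood at 12.9 CPM (10.8 to 15.4) in WT against 20.6 CPM (15.9 to 26.4) in KO, from 127 and 64 UMIs, a log2 ratio of 0.68 (0.22 to 1.12). By range of HSC markers the log2 ratio was -0.18 (-0.51 to 0.15) at 0 to 100 CPM, 0.26 (-0.24 to 0.75) at 100 to 200 CPM, 0.35 (-0.14 to 0.83) at 200 to 400 CPM and 0.59 (-0.33 to 1.43) at 400 CPM or more, and all 4 intervals held 0. In the granule-high groups Itgal was lower in KO, with log2 ratios of -0.38 (-0.55 to -0.20) and -0.43 (-0.61 to -0.25).

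Itgb2 was low in nearly all LSK groups and high in mast-gated and basophil-gated cells. Outside these it lay between 6.504 and 18.0 CPM in WT, against 164 CPM (148 to 182) in basophil-gated and 30.0 CPM (23.9 to 37.1) in mast-gated cells. In KO the basophil-gated level was 54.2 CPM (46.3 to 63.0; log2 ratio -1.601, -1.87 to -1.33) and the mast-gated level 58.2 CPM (51.3 to 65.8; log2 ratio 0.96, 0.60 to 1.33). Itgb2 was lower in KO in 9 of 10 groups, the mast-gated cells being the exception (20.3% of all genes tested were lower in 9 or more), and 3 of the 9 intervals lay below 0. UMIs of both LFA-1 chains were found together in 1.40% of WT and 1.30% of KO cells after thinning, and in 27.8% (18.4 to 39.1) of WT and 9.49% (5.15 to 15.7) of KO basophil-gated cells.

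**Figure D3:**
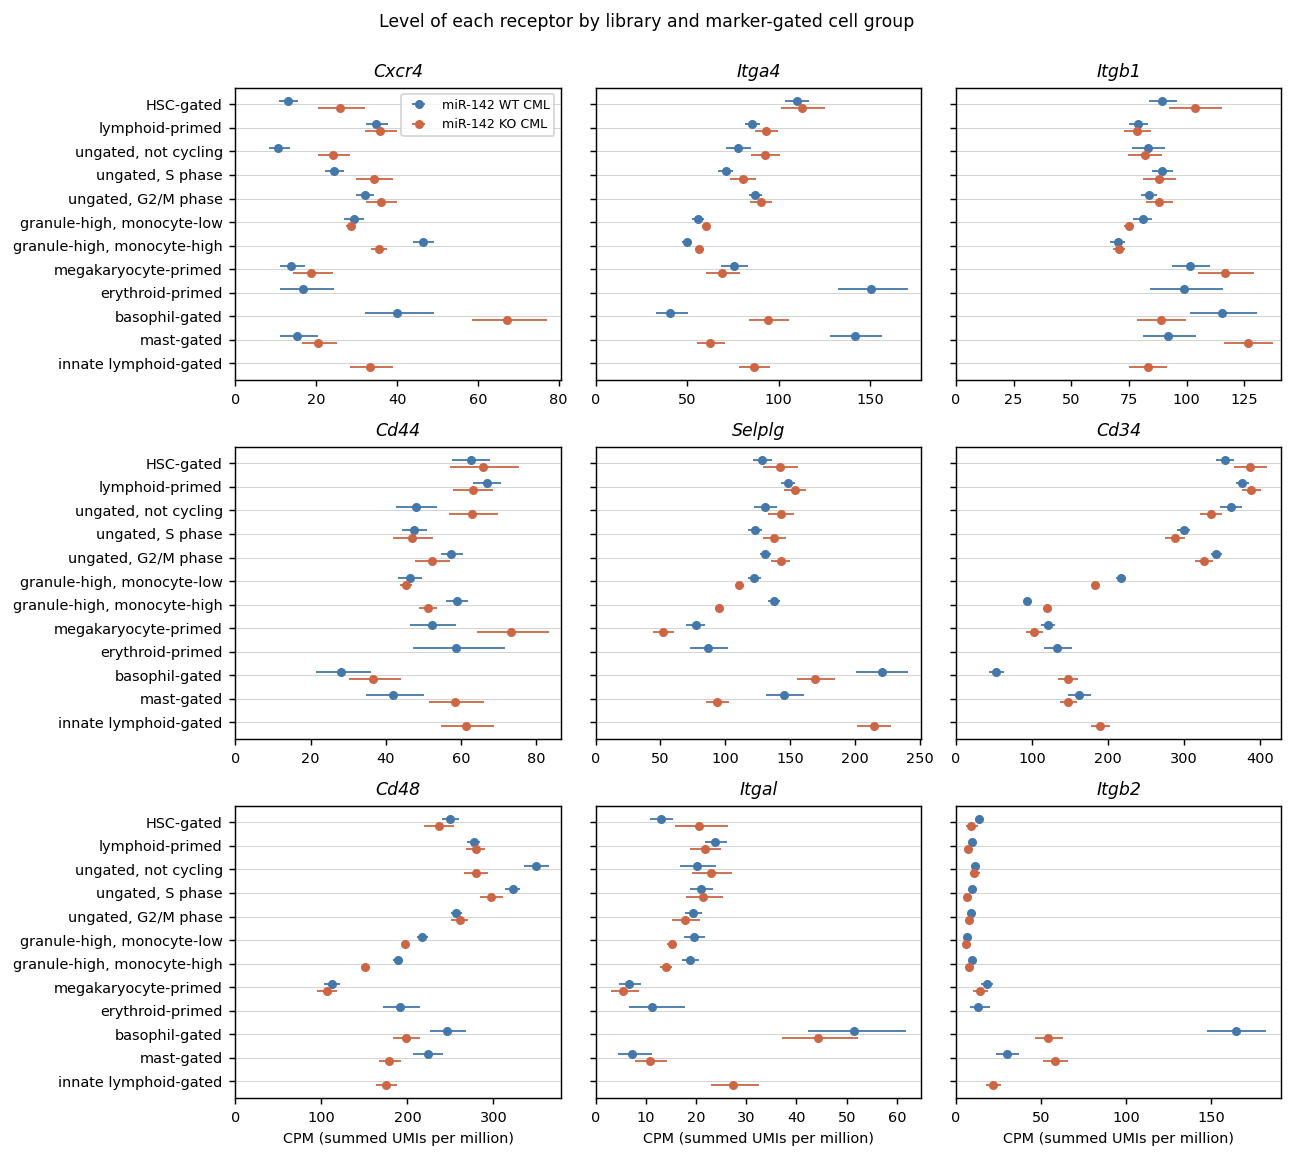
Summed level (CPM, linear axes from 0) of each of the 9 receptors in 12 marker-gated cell groups with 50 or more cells, blue for WT and orange for KO, with 95% counting intervals. Cd34 and Cd48 are high in the HSC-gated, lymphoid-primed and ungated groups. Cd48 is lowest in megakaryocyte-primed cells of both libraries, and Cd34 in basophil-gated cells in WT and megakaryocyte-primed cells in KO. Itgb2 stands out in basophil-gated and mast-gated cells.

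Selplg (ENSMUSG00000048163, chromosome 5, 113818536 to 113832644, minus strand) codes for PSGL-1, the ligand of P-selectin on vessel walls. The ratio between libraries in the HSC-gated, lymphoid-primed and ungated groups differed from that in the granule-high groups. In HSC-gated cells it stood at 129 CPM in WT against 142 CPM in KO (log2 ratio 0.14, -0.02 to 0.30), and the log2 ratio was between 0.05 and 0.17 in the lymphoid-primed and ungated groups. It was -0.15 (-0.22 to -0.08) in granule-high, monocyte-low cells and -0.53 (-0.60 to -0.47) in granule-high, monocyte-high cells, where 138 CPM in WT stood against 95.03 CPM in KO. Megakaryocyte-primed cells had the lowest level in both libraries, 77.1 CPM (70.1 to 84.6) in WT against 51.6 CPM (44.0 to 60.2) in KO. Mast-gated cells were past 1.5-fold, at 145 CPM in WT against 93.6 CPM in KO (log2 ratio -0.64).

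Cd44 (ENSMUSG00000005087, chromosome 2, 102811141 to 102901665, minus strand) codes for a receptor of hyaluronan and E-selectin. It varied little, with a 2.38-fold range over groups in WT and 2.004-fold in KO, and basophil-gated cells lowest in both (28.0 and 36.6 CPM). No group was 1.5-fold apart. HSC-gated cells stood at 62.5 CPM in WT against 65.8 CPM in KO. The ratios nearest to the limit were in megakaryocyte-primed cells, with 52.3 CPM in WT against 73.3 CPM in KO (log2 ratio 0.49, 0.23 to 0.74), and in mast-gated cells, with 41.9 and 58.5 CPM (0.48, 0.16 to 0.81). Ungated non-cycling cells came next, with 47.9 and 62.9 CPM (0.39, 0.17 to 0.62).

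Cd34 (ENSMUSG00000016494, chromosome 1, 194938819 to 194961279, plus strand) showed how an all-cell value can differ from the values inside groups. Over all cells it was 255 CPM in WT against 199 CPM in KO. In HSC-gated cells it was 353 CPM (342 to 365) in WT against 387 CPM (365 to 409) in KO, and in lymphoid-primed cells 376 and 388 CPM. In granule-high, monocyte-low cells, the group with the largest share of the KO UMIs, it was 217 and 183 CPM (log2 ratio -0.25, -0.30 to -0.19), and in granule-high, monocyte-high cells 94.0 and 120 CPM (0.35, 0.28 to 0.42). Basophil-gated cells were past 1.5-fold, with 52.8 CPM (43.6 to 63.4) in WT against 147 CPM (134 to 161) in KO (log2 ratio 1.48), beside the lower basophil and higher granule marker levels of the KO cells given above. The thinned share of cells with a Cd34 UMI was 82.0% in WT and 76.7% in KO over all cells, a difference of -5.22 points with a counting error of 1.53.

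Cd48 (ENSMUSG00000015355, chromosome 1, 171682009 to 171705258, plus strand) is the ligand of CD244 and, at the protein level, separates multipotent progenitors from stem cells. HSC-gated cells had 250.0 CPM in WT against 236 CPM in KO (log2 ratio -0.08, -0.20 to 0.04), and the HSC-gated cells were thus not a Cd48-negative group in either library. The thinned share of HSC-gated cells with a Cd48 UMI went the other way, 68.9% (65.6 to 72.0) in WT and 78.4% (73.2 to 83.1) in KO, so the level and the share differed in direction and no order is read from them. Over the 4 ranges of HSC markers, from low to high, the WT level was 333, 354, 316 and 196 CPM, and the KO level 280.1, 270.2, 256 and 186 CPM. Slamf1 (CD150), the SLAM receptor of stem cells, was lowest in the bottom range, at 2.09 CPM in WT (12 UMIs) and 0.30 CPM in KO (2 UMIs). In the top range it stood at 9.73 CPM (54 UMIs, 7.31 to 12.7) and 9.45 CPM (9 UMIs, 4.32 to 17.9). The level of Cd48 was lower in KO in 8 of 10 groups with 6 intervals below 0 (32.7% of all genes tested were lower in 8 or more groups), and the largest differences were in granule-high, monocyte-high cells (188 and 150.2 CPM, log2 ratio -0.33) and ungated non-cycling cells (350.0 and 279.7 CPM, -0.32). It was lowest in megakaryocyte-primed cells of both libraries, at 112 and 106 CPM, apart from every other group. Cd244a, which codes for the receptor of CD48, stood at 29.2 CPM in WT against 49.4 CPM in KO HSC-gated cells. Over all cells it was lower in KO, at 20.7 and 16.7 CPM (log2 ratio -0.32). It was higher in KO in 7 of 10 groups and lower in 3, among them basophil-gated cells (48.2 and 26.0 CPM).

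Over the 22 pairs of library and cell group with 50 or more cells, the receptors fell into patterns that may be described by their correlations, on log2 (CPM + 1) values and with no test, since the points come from 2 libraries. Selplg and Itgal were the most alike (Pearson r = 0.83), followed by Cxcr4 and Itgal (0.68) and Cd34 and Cd48 (0.66). The subunits of an integrin were not: r was 0.06 for Itga4 with Itgb1 and 0.23 for Itgal with Itgb2. Cd34 and Itgb2 were the most opposed (-0.61). For Itgb2, the mast-gated and basophil-gated points (30.0 to 164 CPM) lay above all other points, which reached 21.7 CPM. Their weight in the correlations of Itgb2, here and below, was not tested. Of 5559 genes with a mean of 20 CPM or more, the most alike were Arpc5, an actin branching subunit, for Itgb2 (r = 0.96), Pcp4l1 for Cd34 (0.94), Cd9, a tetraspanin, for Itgb1 (0.87), Cebpa, a myeloid transcription factor, for Itgal (0.85), Lcp1, an actin bundler, for Selplg (0.84), Lpin2 for Itga4 (0.81), B930036N10Rik for Cd48 (0.80), Prcp for Cd44 (0.80) and Ddost for Cxcr4 (0.78). Next in order were Acsl4 and Myl12a for Itgb2, BC028528 and Calcrl for Cd34, F2r and Tal1 for Itgb1, Parvg for Itgal, Pigx and Cd82 for Selplg, 2410006H16Rik and Tob2 for Itga4, Coro7 and Arid5a for Cd48, Prxl2c and Abi3 for Cd44, and Tmed2 and Rab24 for Cxcr4.

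Other genes of adhesion and homing were listed in 9 groups. Of 191 such genes in the files, 91 had a mean of 10 CPM or more. Of these 4 were 1.5-fold or more higher in KO and 11 lower, with a median log2 ratio of -0.15. Of all 7483 genes tested, 2.78% were that much higher and 4.86% that much lower, with a median of -0.08. These shares are also those to set beside the counts of each list below. The machinery that switches integrins on was mostly close between libraries: of 19 tested genes 1 was past 1.5-fold higher and 2 lower. Talin 1 (Tln1) stood at 165 CPM in WT against 149 CPM in KO, and kindlin-3 (Fermt3) at 171 and 166 CPM. Rasgrp2, an activator of RAP1, was at 123 and 196 CPM (log2 ratio 0.67) and higher in KO in 10 of 10 groups (6.6% of all genes tested), whereas the RAP1 effector Rassf5 was at 34.8 and 23.0 CPM (-0.60) and lower in 10 of 10 (7.03%). The adaptor Fyb was at 50.9 and 32.04 CPM (-0.67) and lower in 7 of 10 groups.

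Of 3 further integrin subunits tested none was past 1.5-fold. Itgb7 is given above, and Itgav (7.16 and 10.96 CPM, log2 ratio 0.61), the alpha chain of the vitronectin receptor and under the mean of 10 CPM, was higher in KO in 10 of 10 groups. Itgam (CD11b), also under that mean, was at 8.27 and 10.7 CPM (0.37). Among 23 genes of CXCR4 signalling none was past 1.5-fold. The median was -0.12, Gnai2 stood at 523 and 460.0 CPM and Rac2 at 341 and 343 CPM, and the lowest ratios were those of the guanine nucleotide exchange factor Dock2 (57.6 and 39.3 CPM, -0.55), the receptor kinase Grk3 (16.4 and 11.3 CPM, -0.54) and Vav3 (33.4 and 23.9 CPM, -0.48). Of 4 chemoattractant receptors tested, the leukotriene B4 receptor Ltb4r1 was higher in KO (18.7 and 38.5 CPM, log2 ratio 1.04; 8 of 10 groups) and the monocyte chemokine receptor Ccr2 lower (67.9 and 43.4 CPM, -0.65; lower in 7 of 10 groups). Ccr1 (5.78 and 11.9 CPM, 1.04) and Cxcr2 (5.80 and 11.3 CPM, 0.96), receptors of myeloid cells, were under the mean of 10 CPM.

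Of 13 selectin ligand and glycosylation genes 5 were higher in KO and 8 lower, and 2 were past 1.5-fold, both lower. Gcnt2, a branching enzyme of glycan chains, was at 54.9 CPM in WT against 18.2 CPM in KO (log2 ratio -1.59) and lower in KO in 10 of 10 groups, with 149.8 and 76.4 CPM in HSC-gated cells. Esam, an adhesion molecule of stem and endothelial cells, was at 15.3 and 6.27 CPM over all cells (-1.29) but at 51.0 and 43.9 CPM in HSC-gated cells. Endomucin (Emcn), listed with them, was at 10.5 and 0.76 CPM (-3.78), and at 28.6 and 5.16 CPM in HSC-gated cells. The fucosyltransferase Fut7, which acts on PSGL-1, stood at 29.2 and 23.1 CPM over all cells but was higher in KO in 6 of 10 groups. Gcnt1, on the same list, was at 11.9 and 17.8 CPM (log2 ratio 0.58), just under 1.5-fold. It was higher in KO in 10 of 10 groups (6.6% of all genes tested).

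Of 5 genes on the list of sialomucin partners and cortex linkers none was past 1.5-fold and all were lower in KO. The largest ratio was that of moesin, Msn (116 and 95.8 CPM, log2 ratio -0.28, lower in 10 of 10 groups), before those of Crkl (-0.26) and radixin, Rdx (-0.19). Of 2 SLAM genes tested, Cd84 was past 1.5-fold lower (26.6 and 16.3 CPM, -0.71). Ly9, with 11.9 and 4.25 CPM (-1.49), was under the mean of 10 CPM. Among 20 other adhesion and niche receptors 2 were past 1.5-fold higher (Cd63 and Cd151) and 3 lower (Plxnc1, Notch1 and Icam1). The tetraspanin Cd63 was at 213 CPM in WT against 571 CPM in KO (log2 ratio 1.42) and higher in 10 of 10 groups, with 342 and 782 CPM in HSC-gated cells. Cd151, another tetraspanin and a partner of integrins, was at 19.7 and 40.1 CPM (1.03). Notch1 was at 17.5 and 10.5 CPM (-0.73), and Icam1, a ligand of LFA-1, at 18.3 and 12.1 CPM (-0.59). The semaphorin receptor Plxnc1 was at 15.9 and 5.39 CPM (-1.56). Both ligands tested were lower over all cells: Angpt1, which stem and progenitor cells make themselves, was at 90.3 and 42.6 CPM (-1.08), with 239 and 208 CPM in HSC-gated cells, and Spp1 at 14.6 and 7.16 CPM (-1.03), with 274 and 13.5 CPM in basophil-gated cells.

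**Figure D4:**
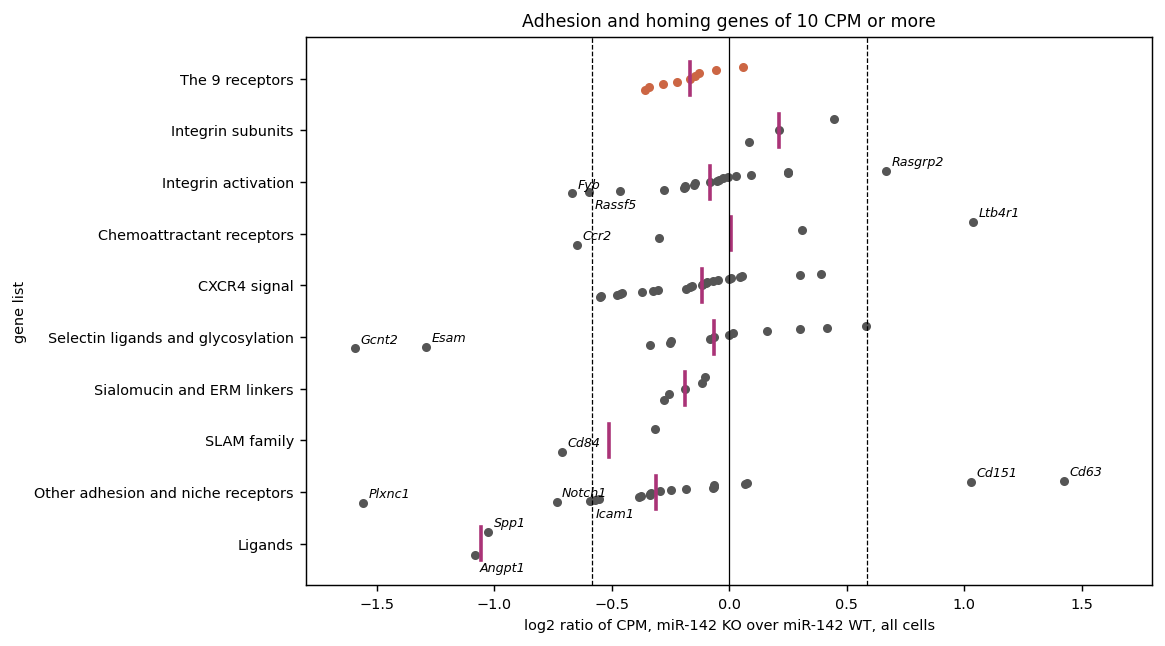
Log2 ratio (KO over WT, all cells) of each listed adhesion and homing gene with a mean of 10 CPM or more (grey points), by list, with the 9 receptors on top (orange) and the median of each list as a bar; dashed lines mark 1.5-fold. The 9 receptors lie between -0.36 and 0.06, inside both dashed lines, and 15 of the 91 listed genes lie outside them. Of all 7483 genes tested, 2.78% were 1.5-fold or more higher in KO and 4.86% lower.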

How the data were processed

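LSK cells of 1 library per group were profiled on a 10x Genomics platform. The authors had reads mapped to mm10 (GRCm38) and UMIs counted by Cell Ranger (6.1.2 in the submitters' processing notes, 4 in the file headers), and what they deposited are raw counts of UMIs for every barcode, with no filter on cells and no normalization. Cells needed 8000 UMIs and under 10% mitochondrial UMIs, a higher cutoff than that of the study. It selects cells with more RNA.

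From these counts, sums per library and cell group were scaled to CPM, with exact Poisson intervals, and the interval of a log2 ratio, KO over WT, is the exact conditional binomial one. Shares carry exact Clopper-Pearson intervals after thinning to 8000 UMIs. UMI counts per gene from a 3′ kit do not depend on length in a known way, so levels of different genes were not ranked. A receptor was compared in a group with 50 or more cells in both libraries, and all had 20 or more UMIs there, summed over both libraries; all other genes needed a mean of 10 CPM. Genes were counted as different from 1.5-fold, a rule of size.

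Gates were applied in a fixed order on summed marker levels per cell: mast and basophil 2000 CPM, antibody-secreting 5000, innate lymphoid 800, megakaryocyte 300, erythroid 400, granule-high 6000 (monocyte 500), HSC 200 (not cycling) and lymphoid-primed 400. S and G2/M gates were at 1500 CPM. Doublets were kept: the automatic threshold of Scrublet (scanpy 1.11.5) had not worked, marking 1 WT and 0 KO cells, so the highest scores (230 WT and 238 KO cells, 0.8% per 1000 cells) were left out as an alternative.

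The receptors and lists were chosen with earlier results of these data known, and gate thresholds were set after marker levels were seen. The text names the 9 receptors, the 3 genes of each list with the largest ratio among those with 10 CPM in either library and 100 UMIs, binding partners, and the 3 most alike genes per receptor. Tln1, Fermt3, Gnai2, Rac2, Fut7, Gcnt1, Ccr2, Cd151, Notch1 and Slamf1 were added after their values were seen. A few genes that the rule names are not reported here. Computations used Python 3.11.15 (numpy 2.4.6, scipy 1.17.1), and the code for ratios and their intervals was first checked on simulated counts with known folds.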

Additional observations from a re-analysis of the deposited data

Results flagged for a closer look

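For 6 of the receptors the KO over WT ratio had opposite signs in different cell groups, each with a counting interval clear of 0 and with at least 1 ratio past 1.5-fold, a pattern that 12.1% of the 7483 genes tested also had. With 1 library per group these differences between cell groups were not tested, and the pairs below are the extremes of 10 groups. The log2 ratio of Cxcr4 was 1.19 in ungated non-cycling cells and -0.39 in granule-high, monocyte-high cells. That of Itga4 was 1.21 in basophil-gated and -1.18 in mast-gated cells, and that of Itgb2 -1.601 and 0.96 in the same groups. That of Cd34 was 1.48 in basophil-gated cells and -0.25 in granule-high, monocyte-low cells. That of Itgal was 0.68 in HSC-gated cells and -0.43 in granule-high, monocyte-high cells. That of Selplg was 0.17 in ungated S phase cells and -0.64 in mast-gated cells.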

How the results depend on the processing

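The median log2 ratio of the 9 receptors over all cells, -0.17, was -0.22 with a cutoff of 16000 UMIs, -0.10 with median-ratio size factors, -0.054 with cells thinned to 8000 UMIs, -0.032 at 1 composition of cell groups and -0.023 in cells outside the S and G2/M gates. In that last set, which was not matched in makeup, 1 receptor, Cxcr4 at 0.96, was 1.5-fold or more higher in KO. Signs turned for Itgb1 (0.015 with size factors, 0.0050 thinned, 0.0025 at 1 composition, 0.030 outside the S and G2/M gates), for Itgal (0.075 thinned, 0.072 outside the gates), for Itga4 (0.089 at 1 composition), for Cd44 (0.093 outside the gates) and for Cxcr4 (-0.06 at 16000 UMIs, where its main interval already held 0). Size factors moved the median of all genes from -0.08 to -0.0084. The count of 10 of 90 pairs past 1.5-fold was 3 of 63 in groups of 200 or more cells and, chosen after seeing the data, 16 of 62 in cells under 1000 CPM of granule genes; with thresholds doubled or without the 52 of 138 markers 2-fold apart it was 12 of 90. The ratio of Cxcr4 in HSC-gated cells, 0.99, lay between 0.75 and 1.16 under the settings that changed it. That of Itgal, 0.68, lay between 0.71 and 1.12 under the same settings. The limits on group size and low counts could not move these 2 ratios. The mast and basophil gate at 10000 CPM left both as they were. The median difference of shares, -0.70 points, was 2.43 points without thinning, where those of Cd44 and Selplg turned to 2.85 and 2.24 points. The 15 listed genes past 1.5-fold were 4 at a mean of 50 CPM and 67 with no floor. With an 8-base match, 0 receptors matched the 3p seed and 1 the 5p seed. No paired analysis was possible because there was 1 library per group. The causes were not tested. Depth limits Itgb2 and Itgal most, with as few as 28 (HSC-gated) and 17 UMIs (megakaryocyte-primed) from KO in a compared group.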
